A study of Mus musculus with 8 samples.

Results

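Brca1, Brca2, Rad54l, Blm, Fancd2, Fanci, Bard1, Brip1 and Palb2 are 9 mouse genes of homologous recombination and of the Fanconi anaemia pathway. Their probe sets were taken by symbol from the platform annotation: 19 carry one of the 9 symbols, of 45037 that are not controls, and 5 genes have 1 probe set each. RNA from 8 samples was hybridised to Affymetrix mouse expression arrays, in 4 groups of 2. All samples came from mice with a GFP reporter for AID (activation-induced cytidine deaminase, which B cells use to switch antibody class and to mutate antibody genes). One pair of groups is bone marrow cells with BCR-ABL1, the fusion tyrosine kinase of chronic myeloid leukaemia and of some acute lymphoblastic leukaemias, either GFP-negative or GFP-positive. The other pair is B cells of the spleen stimulated with lipopolysaccharide and interleukin 4, again GFP-negative or GFP-positive. The title of the series sets GFP-positive against GFP-negative cells. How BCR-ABL1 was introduced, the reporter construct, the purification, the hours of stimulation, and the age, sex and strain of the mice are not stated in the labels, and neither is whether the 2 samples of a group came from separate mice or cultures. The p-values then measure only the spread between these arrays, which may be technical.

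Homologous recombination repairs a broken DNA molecule by copying an intact sister, and so works mainly in cells that replicate their DNA. BRCA1 and BARD1 form a ubiquitin ligase that acts at breaks, PALB2 joins BRCA1 to BRCA2, and BRCA2 loads the strand-exchange recombinase onto resected DNA. RAD54L is a motor protein that helps this recombinase invade the sister, and BLM is a helicase that takes apart the joined molecules. FANCD2 and FANCI form a clamp that is ubiquitinated when a replication fork meets a crosslink, and BRIP1 (also FANCJ) is a helicase that binds BRCA1. BRCA2, PALB2, BRCA1 and BRIP1 are themselves Fanconi anaemia proteins. In activated B cells, breaks made in the course of class switching are joined mostly by end joining, while recombination protects the dividing genome.

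RefSeq (GRCm38.p6) gave a promoter sequence for 8 of the 9 genes, cut here to the 250 bases before the transcript start. The windows were searched on both strands for E2F sites (TTTCCCGC, TTTCGCGC, TTTGCCGC or TTTGGCGC), for the CHR element of cell cycle genes (TTTGAA) and for the CCAAT box (CCAAT). An E2F match lay in 2 of the 8 windows, against 1.86% of 32851 RefSeq windows of the same length. A CHR match lay in 1 of 8, against 16% of windows, and a CCAAT match in 4 of 8 (Brca1, Rad54l, Blm and Brip1), against 33.8%. A match describes letters and no more. Not printed are the windows of Brca1, Rad54l and Blm, which hold CCAAT matches only, though these transcripts too were far apart between the splenic fractions. The other 5 windows, of Bard1, Brca2, Brip1, Fanci and Palb2, are printed 5′ to 3′ along the gene with matches in capitals. Transcripts of Bard1, Brca2 and Brip1 were far apart between the splenic fractions, and those of Fanci and Palb2 were not. Both E2F matches are in the printed set (Bard1 and Brca2), so these 5 windows do not show how matches relate to the splenic change. They lie at chr1:71102973-71103222 (minus strand), chr5:150522371-150522620 (plus), chr11:86201194-86201443 (minus), chr7:79392088-79392337 (plus) and chr7:122132947-122133196 (minus).
Bard1: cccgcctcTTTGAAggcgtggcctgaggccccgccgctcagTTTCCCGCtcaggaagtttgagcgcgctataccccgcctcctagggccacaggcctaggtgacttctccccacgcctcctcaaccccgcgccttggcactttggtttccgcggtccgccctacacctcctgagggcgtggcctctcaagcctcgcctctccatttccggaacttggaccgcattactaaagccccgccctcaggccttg
Brca2: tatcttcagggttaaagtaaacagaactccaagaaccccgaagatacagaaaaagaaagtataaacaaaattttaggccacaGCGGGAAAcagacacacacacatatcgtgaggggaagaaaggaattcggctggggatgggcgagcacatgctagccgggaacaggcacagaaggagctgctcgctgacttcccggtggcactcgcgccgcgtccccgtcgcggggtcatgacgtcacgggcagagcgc
Brip1: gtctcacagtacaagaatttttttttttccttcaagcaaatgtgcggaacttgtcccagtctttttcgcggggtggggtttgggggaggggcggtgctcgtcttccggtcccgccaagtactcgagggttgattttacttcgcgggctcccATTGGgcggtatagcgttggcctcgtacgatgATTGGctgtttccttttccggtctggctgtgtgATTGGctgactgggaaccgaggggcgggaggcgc
Fanci: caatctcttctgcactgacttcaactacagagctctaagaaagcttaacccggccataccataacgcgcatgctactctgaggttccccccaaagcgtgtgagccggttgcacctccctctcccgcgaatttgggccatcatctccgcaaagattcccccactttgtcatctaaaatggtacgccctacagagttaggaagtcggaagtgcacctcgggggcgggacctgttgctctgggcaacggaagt
Palb2: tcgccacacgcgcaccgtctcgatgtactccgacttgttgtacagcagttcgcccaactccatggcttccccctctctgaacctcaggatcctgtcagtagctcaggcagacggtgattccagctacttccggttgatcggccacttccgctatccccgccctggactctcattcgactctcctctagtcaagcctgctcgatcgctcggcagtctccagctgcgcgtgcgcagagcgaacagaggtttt
In Bard1 the CHR letters lie 242 to 237 bases before the start and the E2F letters 209 to 202 bases before it. The E2F letters of Brca2 are on the opposite strand, 168 to 161 bases before the start. Brip1 holds 3 CCAAT boxes on the opposite strand, the nearest 34 to 30 bases before the start. No capitals appear in the Fanci and Palb2 windows, which says only that these letters are not in these 250 bases.

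Signals below are array intensities after quantile normalization of the 8 arrays, with values under 32 set to a floor of 32. Each of the 9 genes is represented by its brightest tested probe set, and fold changes are log2 differences with their standard error (SE) from limma. A gene was called at an adjusted p under 0.05 over 12223 genes. Of the 19 probe sets, 16 passed the filter on low signals (a mean log2 of 5.67 over the 8 arrays, a signal of 51.0), so all 9 genes were tested. In the GFP-negative splenic arrays Rad54l, Fancd2, Bard1 and Brip1 lay below that signal and passed through the other 3 groups.

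Before normalization the trimmed mean intensity was 487 in the GFP-negative splenic group and 590.0, 593 and 591 in the other 3. The 3′ to 5′ signal ratio of Gapdh, a sign of RNA quality, was 1.91 in that group and 1.43 to 1.47 in the others. The B cell label was checked with 9 B cell markers, whose summed signal ran from 29895 to 42145 in 3 groups and from 59361 to 60325 in the GFP-negative splenic arrays. The 8 pre-B cell markers summed to 40884 to 43590 in the BCR-ABL1 arrays and to 1756 to 8328 in the splenic ones. Igll1 went the other way, at 1997 and 847 in GFP-negative and GFP-positive splenic cells against 598 and 538 in BCR-ABL1 cells. Il7r read 4566 against 3756 in the GFP-negative cells of spleen and BCR-ABL1, and 36.6 against 4822 in the GFP-positive ones. The other markers of this list were higher in BCR-ABL1 cells. The GFP-negative splenic arrays also carried myeloid transcripts: 16 myeloid markers summed to 93616 to 95826 there, against 1095 to 1202 over the 6 other arrays. In the GFP-positive splenic arrays 5 of the 16 were at the floor (Camp, Ngp, Elane, Csf1r and Itgam) and 5 lay above the filter signal: Cd68 at 453, Adgre1 at 86.2, Lyz2 at 61.4, S100a9 at 58.8 and Clec4d at 58.5. Of these, Cd68, Adgre1 and Clec4d were higher there than in GFP-positive BCR-ABL1 cells, and Lyz2 lower. The 16 T and NK cell markers summed to 19730 to 20949 in the GFP-negative splenic arrays and to 2251 to 3024 elsewhere. Of 6 erythroid markers, Hba-a1 and Alas2 were at the floor in all 4 groups, and nearly all of the list's signal was Tfrc, the transferrin receptor that dividing cells also express (4402 in GFP-negative and 6223 in GFP-positive splenic cells).

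In stimulated splenic cells, 7 of the 9 genes were higher in the GFP-positive than in the GFP-negative fraction, and Palb2 was lower, while on the deposited scale 8 were higher with 0 lower and after a shift of each array to 1 median 9 were higher. Over all 12223 genes, 45.7% were called higher and 31.4% lower, so that 59.2% of calls were higher, against 69% on the deposited scale, 75.1% after the median shift and 47.1% with that shift taken over tested probe sets. The rises were 3.08-fold for Brca2, 8.18-fold for Blm and 19.5-fold for Brca1. Those of Rad54l, Bard1, Fancd2 and Brip1 rest on GFP-negative splenic signals below the filter, so their sizes are not exact and have no order. The median change of the 9 genes, with Fancd2 and Brip1 at their bound, was 3.44 on the log2 scale, against 0.18 over all genes. That median is the value of Bard1, so it is not exact either. In these bulk samples, fewer cells of a type and less RNA per cell cannot be told apart.

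**Figure D1:**
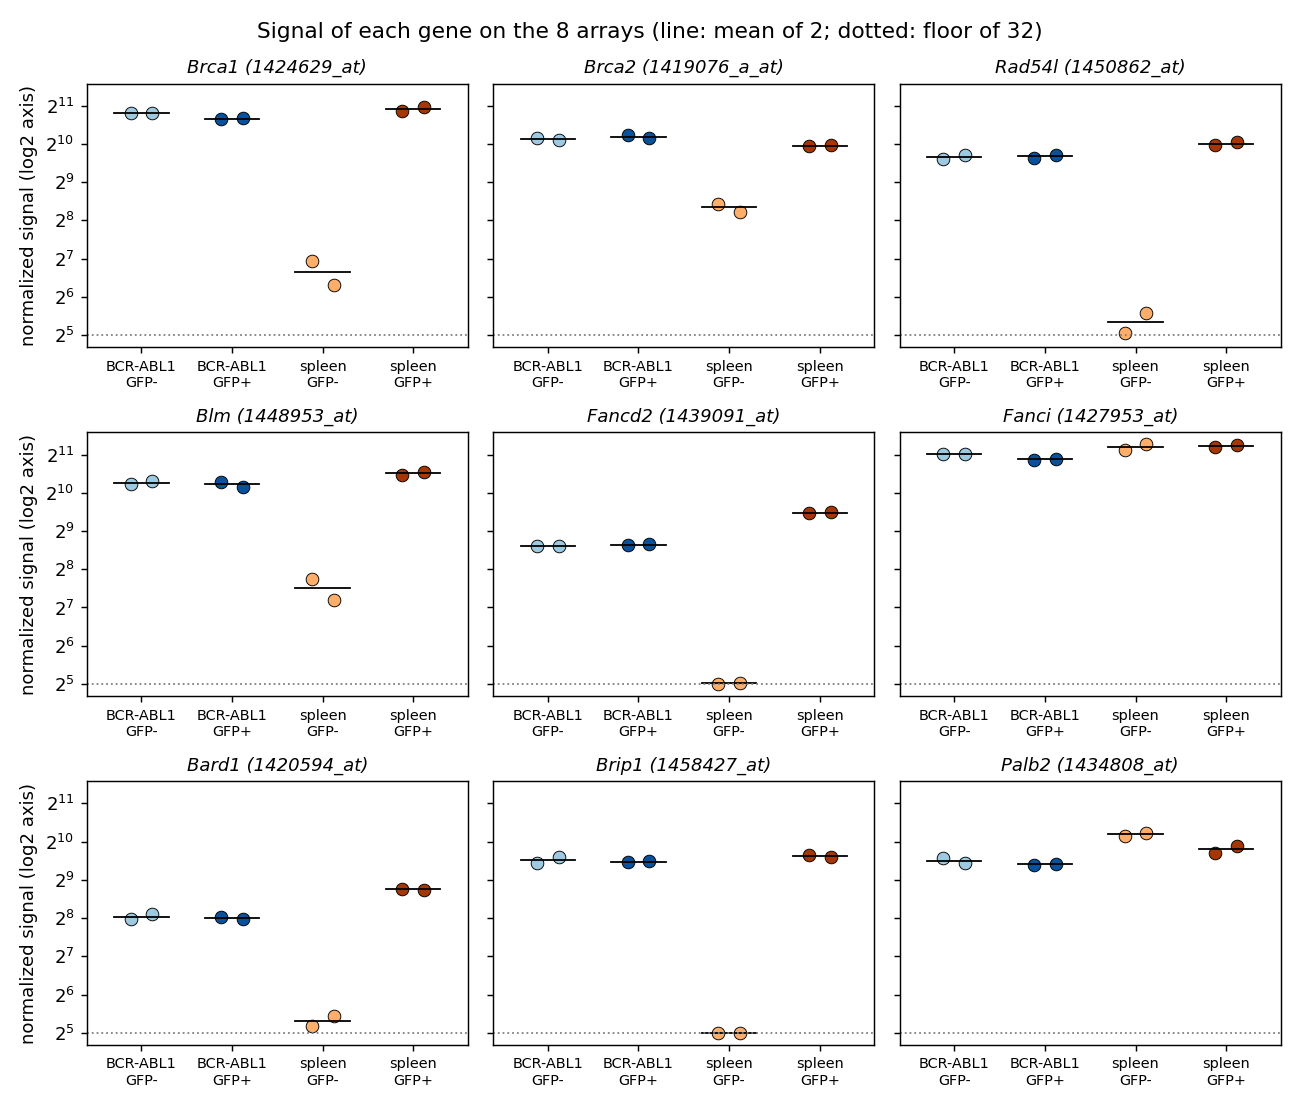
Normalized signal (log2 axis) of the representative probe set of each gene on each of the 8 arrays, with the mean of the 2 arrays of a group as a line and the floor of 32 dotted. In 7 panels the GFP-negative splenic arrays lie far below the other 6; in the Fanci and Palb2 panels they do not.

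In the BRCA1 complex, Brca1, the ligase and scaffold subunit, read 123 and 79.7 in the GFP-negative splenic arrays and 1868 and 1993 in the GFP-positive ones. The fractions were far apart and did not overlap (change 4.28 ± 0.17, 95% interval 3.88 to 4.69, adjusted p = 1.4e-07). Bard1, its ligase partner, read 35.9 and 43.5 in the GFP-negative and 438 and 423 in the GFP-positive splenic arrays. That is a rise of 3.44 ± 0.14 (10.9-fold), with the lower pair close to the floor. Bard1 passed the filter only through the other groups, so no p-value is given for its rise. Brip1, the helicase partner, was at the floor in both GFP-negative splenic arrays and read 800.4 and 777 in the GFP-positive ones. Its difference is therefore a lower bound, at least 24.6-fold higher in the GFP-positive fraction. The floor also removed the spread of the low pair, so no p-value is given for it. With a floor of 64 in place of 32, the changes of Brip1, Fancd2, Rad54l and Bard1 were 3.62, 3.48, 4.01 and 2.75.

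Palb2, the bridge from BRCA1 to BRCA2, was lower in the GFP-positive fraction after quantile normalization, though not on the deposited scale or after the median shift. It read 1129 and 1203 in the GFP-negative splenic arrays and 831 and 950.0 in the GFP-positive ones, so the fractions did not overlap. The change was -0.39 ± 0.10 (1.31-fold lower, adjusted p = 0.0058) after quantile normalization, but 0.10 on the deposited scale and 0.26 after the median shift, where it was called higher (adjusted p = 0.032). Relative to the median of all genes, which was itself 0.18, 0.39 and 0.55 under these scalings, Palb2 lay at -0.57, -0.30 and -0.30. Its direction thus depends on the scaling, and its place below the median gene held under these 3 and under a median shift over tested probe sets.

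Among the genes that carry out strand exchange and resolve its products, Brca2 had the smallest rise of the 7. It read 347 and 301 in the GFP-negative and 979 and 1009 in the GFP-positive splenic arrays (1.62 ± 0.10, 3.08-fold, adjusted p = 1.0e-06). The GFP-negative fraction kept a clear Brca2 signal, well above the filter. Rad54l, the motor protein, read 33.4 and 47.5 in the GFP-negative and 997 and 1060.4 in the GFP-positive arrays (4.69 ± 0.16, 25.8-fold). The mean of its 4 probe sets changed by 2.39. Rad54l too passed the filter only through the other groups, so no p-value is given for its rise. Blm, the RecQ helicase, read 214 and 148 against 1422 and 1487 (3.03 ± 0.16, 8.18-fold, adjusted p = 5.5e-07). Of the 9 genes, 8 had splenic fractions that did not overlap, as did 85.5% of all genes.

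The partners of the Fanconi clamp differed from each other. Fancd2 read 32.6 on 1 GFP-negative splenic array, lay at the floor on the other, and read 708 and 723 on the GFP-positive arrays. It was thus at least 22.2-fold higher (a log2 change of at least 4.47), with 2.44 for the mean of its tested probe sets. The floor narrowed the spread of the low pair, so no p-value is given for it. Fanci, with which FANCD2 forms the clamp, read 2242 and 2459 in the GFP-negative and 2335 and 2435 in the GFP-positive splenic arrays. Those fractions overlapped, with a change of 0.02 ± 0.06 (95% interval -0.12 to 0.17, adjusted p = 0.76). Fanci was called higher on the deposited scale (0.32, adjusted p = 0.0011) and after the median shift (0.48, adjusted p = 7.5e-05). Set against the median of all genes it lay at -0.16 after quantile normalization, -0.08 on the deposited scale and -0.07 after the median shift.

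Not every probe set of a gene gave the same reading. Of the 16 tested, 12 were called higher in the GFP-positive splenic fraction, 2 lower and 2 not, where 44.9% of 27022 probe sets were called higher and 33.3% lower. The 3 tested Brca1 probe sets rose by 4.28, 3.21 and 3.12. Of the 4 Rad54l probe sets, 3 rose by 4.16 to 4.69. The remaining one, 1453926_at, read 963 and 789 in the GFP-negative and 84.3 and 64.6 in the GFP-positive splenic arrays, and 50.6 to 71.0 in the BCR-ABL1 arrays. That is a change of -3.56 ± 0.21 (adjusted p = 1.8e-06), opposite to the other 3. RefSeq (GRCm38.p6) places Lrrc41 across part of the Rad54l locus; its probe set 1427125_s_at rose by 1.25 ± 0.14. The transcript that 1453926_at reads was not tested.

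Fancd2 probe set 1438339_at rose by 2.82 (39.3 and 32 against 253 and 248). A further Fancd2 probe set, 1442092_at, read 40.7 and 58.8 against 60.6 and 41.6 in the splenic fractions, with no call (0.04 ± 0.23, adjusted p = 0.89). It was near the filter on all 8 arrays, from 40.7 to 76.0. Fanci rests on 1427953_at alone. Its other probe set, 1425941_a_at, was too dim to test, at the floor in both GFP-negative splenic arrays and at 44.7 and 46.5 in the GFP-positive ones. Fanci overlaps Polg, the mitochondrial DNA polymerase, in RefSeq. Polg probe set 1423272_at changed by -0.09 ± 0.07 (adjusted p = 0.30) and the other, 1423273_at, by 0.84 ± 0.16. Over the 8 arrays the Pearson r of 1423272_at with the bright Fanci probe set was 0.895. Which transcript that Fanci probe set reads was not tested. The untested Brca1 probe set 1427698_at was at the floor on all 8 arrays, and Fancd2 probe set 1430916_at read 32 to 39.5.

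**Figure D2:**
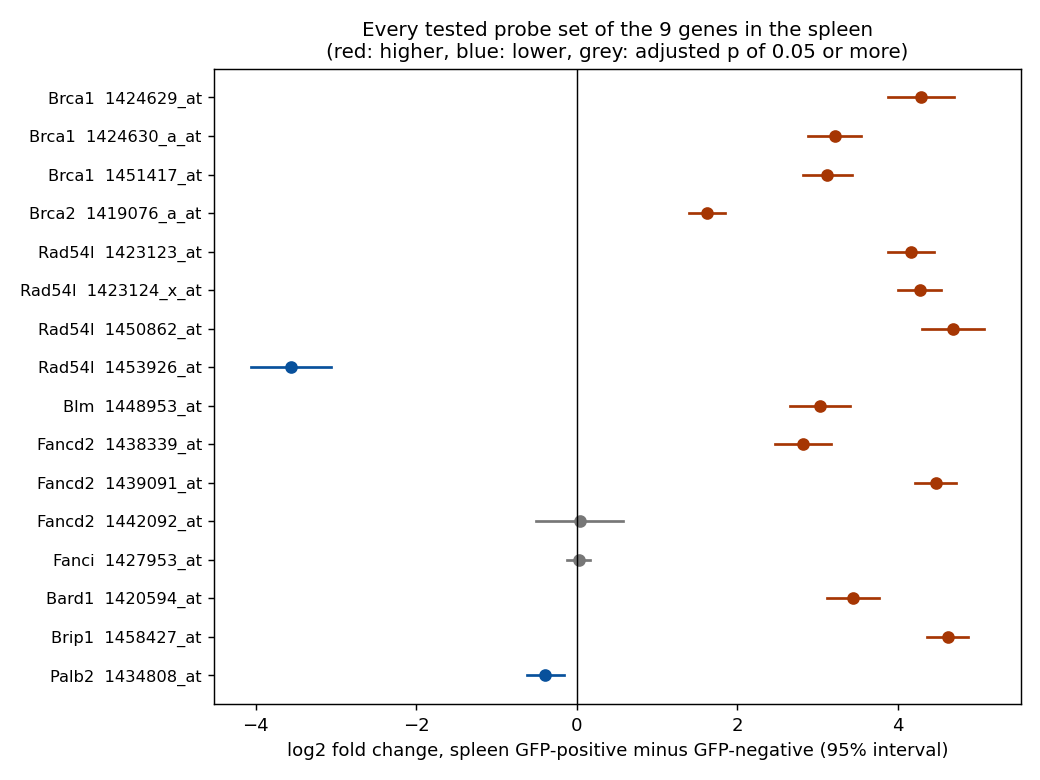
Log2 fold change, GFP-positive minus GFP-negative splenic cells, with its 95% interval, for each of the 16 tested probe sets. The points of Brca1, Rad54l and Fancd2 show how far probe sets of 1 gene can lie apart: Rad54l runs from -3.56 to 4.69; the sign of Palb2 (-0.39) depends on the scaling.

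In BCR-ABL1 cells, none of the 9 genes was called between the GFP fractions by limma, where 5.37% of all genes were called. At an unadjusted p under 0.05 there was 1 among the representative probe sets, that of Fanci. It read 2078 and 2073 in the GFP-negative and 1869.8 and 1884 in the GFP-positive arrays, a change of -0.15 ± 0.06 (unadjusted p = 0.049, adjusted p = 0.32). The changes of the 9 genes ran from -0.15 to 0.07, with a median of -0.04 against 0.00 over all genes. The 95% intervals of the representative probe sets reached from -0.55 to 0.40, so changes of that size are not distinguished from none with 2 arrays a group.

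Brca1 read 1798 and 1796 in the GFP-negative and 1610.1 and 1625 in the GFP-positive BCR-ABL1 arrays (-0.15 ± 0.17, adjusted p = 0.86). Its other 2 tested probe sets, in a limma fit of every tested probe set, gave -0.39 ± 0.14 (unadjusted p = 0.027, adjusted p = 0.31) and -0.30 ± 0.13 (adjusted p = 0.46). In all 3 both GFP-positive arrays lay below both GFP-negative ones, with no call. Brca2 read 1133 and 1090.2 against 1196 and 1132 (0.07 ± 0.10). Rad54l read 777 and 834 against 801 and 839 (0.03 ± 0.16), and Blm 1197 and 1269 against 1254 and 1133 (-0.05 ± 0.16). In these strand-exchange and helicase genes the fractions overlapped.

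Fancd2 read 388 and 393 in the GFP-negative and 396 and 403 in the GFP-positive BCR-ABL1 arrays (0.03 ± 0.11). Bard1 read 250.2 and 275 against 261 and 251 (-0.03 ± 0.14), and Brip1 694 and 776 against 703 and 720.1 (-0.04 ± 0.11). Palb2 read 757 and 695 against 672 and 687 (-0.09 ± 0.10, adjusted p = 0.83). Of the 9 genes, 4 (Brca1, Fancd2, Fanci and Palb2) had BCR-ABL1 fractions that did not overlap, as did 51.4% of all genes with these pairs of arrays, so this is no mark of the 9.

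The GFP effects of the sources differed by the interaction test in 7 genes, each with a smaller effect in BCR-ABL1 cells, where 41.0% of all genes were called in that direction. Of all calls of this test 40.6% were higher, with 30.6% on the deposited scale, 24.9% after the median shift and 51.8% over tested probe sets. The difference, BCR-ABL1 effect minus spleen effect, was -1.56 ± 0.14 for Brca2 and -3.08 ± 0.23 for Blm. It lay between -3.48 and -4.67 for Bard1, Brca1, Fancd2, Rad54l and Brip1, of which all but Brca1 rest on GFP-negative splenic signals below the filter. For Fanci it was -0.17 ± 0.09 (adjusted p = 0.13) and for Palb2 0.30 ± 0.14 (adjusted p = 0.085). Fanci was called on the deposited scale (-0.45) and after the median shift (-0.60), and Palb2 changed sign under both (-0.16 and -0.31).

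**Figure D3:**
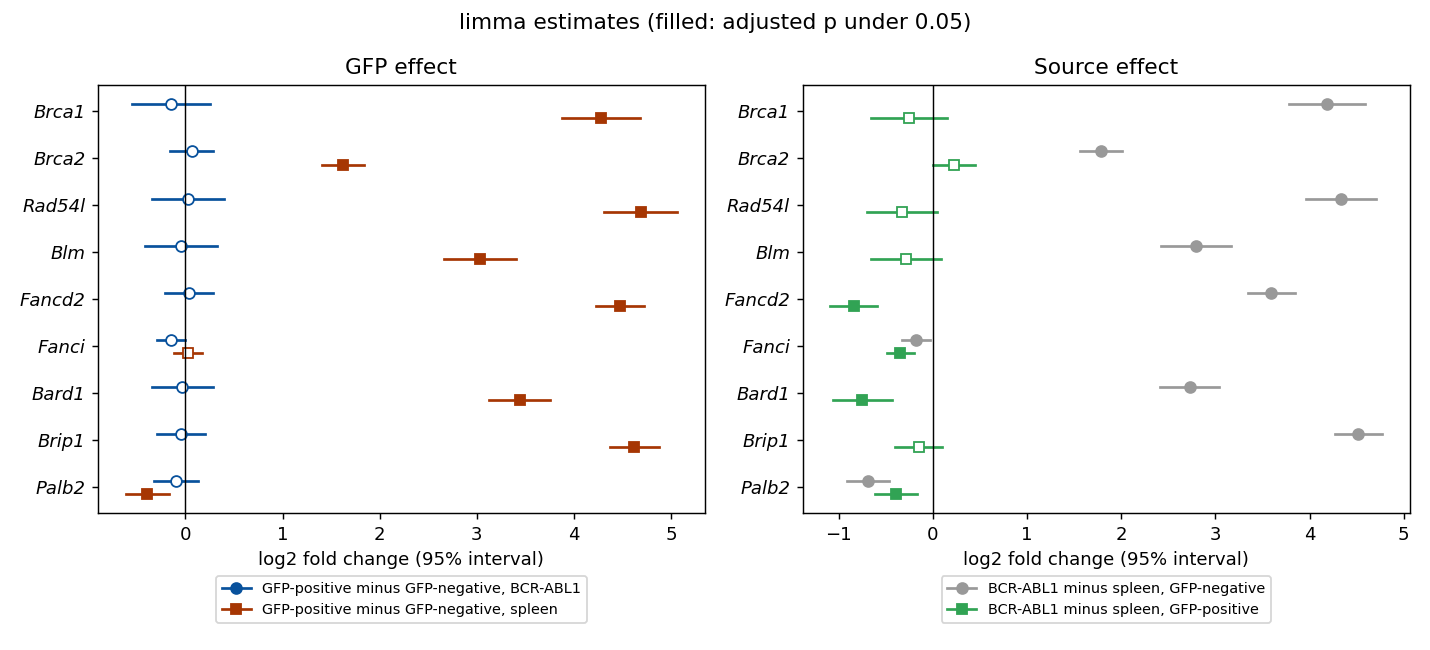
Log2 fold changes with 95% intervals for the 9 genes: on the left the GFP effect in BCR-ABL1 cells (circles) and in splenic cells (squares), on the right BCR-ABL1 minus spleen within GFP-negative (circles) and GFP-positive cells (squares); filled symbols have an adjusted p under 0.05. The left circles sit between -0.15 and 0.07, and the squares reach 4.69. Against the splenic GFP-negative arrays, the sign of Fanci depends on the scaling in both panels and that of Palb2 in the left panel only.

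With both fractions GFP-positive, 4 of the 9 genes were lower in BCR-ABL1 than in splenic cells, 0 were higher and 5 were not called. The median change was -0.33, against -0.05 over all genes and -0.33 at their 25th percentile. Of all genes, 25.5% were called lower and 24.8% higher. Fancd2 averaged 399 ± 4.34 in BCR-ABL1 and 716 ± 10.5 in splenic cells (SD, n = 2), a change of -0.84 ± 0.11 (adjusted p = 0.00025). With the mean of the Fancd2 probe sets in place of the brightest it was -0.17 (adjusted p = 0.22). Bard1 averaged 256 ± 6.95 against 430.1 ± 10.7 (-0.75 ± 0.14, adjusted p = 0.0020). Fanci averaged 1877 ± 10.1 against 2385 ± 70.6 (-0.35 ± 0.06, adjusted p = 0.0020). Polg probe set 1423272_at, of the gene that overlaps Fanci, changed by -0.41 in this comparison.

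Palb2 averaged 679 ± 10.9 in GFP-positive BCR-ABL1 cells and 890.4 ± 84.3 in GFP-positive splenic cells (-0.39 ± 0.10, adjusted p = 0.010). Without BCR-ABL1 GFP-positive replicate 1 or 2, or splenic GFP-positive replicate 2, its adjusted p was 0.068, 0.051 and 0.083. The other 5 genes gave no call: Brca1 at -0.25 ± 0.17, Brca2 at 0.23 ± 0.10, Rad54l at -0.33 ± 0.16, Blm at -0.29 ± 0.16 and Brip1 at -0.15 ± 0.11. Their 95% intervals reached from -0.70 (Rad54l) to 0.45 (Brca2). Fitted on the 4 GFP-positive arrays alone, Brca1, Brca2, Rad54l and Blm were also called. That fit estimates the spread of every gene anew, and the 25.5% lower and 24.8% higher of all genes belong to the main fit. Those further calls therefore have no background beside them. Without splenic GFP-negative replicate 1 or 2 the changes of these genes stayed as they were, so their calls turn on the spread estimate.

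With both fractions GFP-negative, the same 7 genes that separated the splenic fractions were higher in BCR-ABL1 than in splenic cells, where 45.7% of all genes were called higher and 32.8% lower. Of those calls 58.2% were higher, with 68.5%, 72.8% and 44.2% under the same 3 other scalings. This comparison, the splenic GFP comparison and the GFP-positive source comparison share arrays. The values were 4.18 for Brca1, 1.78 for Brca2, 4.34 for Rad54l, 2.79 for Blm and 2.73 for Bard1, those of Rad54l and Bard1 over splenic signals below the filter. Against splenic signals at or next to the floor, Fancd2 was at least 12.1-fold and Brip1 at least 22.9-fold higher. Palb2 was lower (-0.68 ± 0.10, adjusted p = 0.00022), but at -0.19 and -0.08 with no call on the deposited scale and after the median shift. Fanci was lower by a small margin (-0.18 ± 0.06, adjusted p = 0.029). Its sign turned on the deposited scale (0.12) and after the median shift (0.23), and its call was lost in 7 further alternatives.

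On the representative probe sets, the order of the groups was alike for Brca1, Rad54l, Blm, Fancd2, Bard1 and Brip1: highest in GFP-positive splenic cells, then the BCR-ABL1 fractions, and lowest in GFP-negative splenic cells. The other 2 tested Brca1 probe sets were highest in GFP-negative BCR-ABL1 cells (1062 and 306, against 892 and 300.0 in GFP-positive splenic cells). Rad54l probe set 1453926_at was highest in GFP-negative splenic cells. Fancd2 probe set 1442092_at, near the filter, was highest in GFP-positive BCR-ABL1 cells (76.0, against 51.1 in GFP-positive splenic cells). The BCR-ABL1 fractions were not separated by a call in any of them, nor was the highest group from GFP-positive BCR-ABL1 cells in Brca1, Rad54l, Blm and Brip1. Brca2 was highest in the BCR-ABL1 fractions (1112 ± 30.2 and 1164 ± 45.3, against 994 ± 20.9 in GFP-positive and 324 ± 32.7 in GFP-negative splenic cells). Palb2 was highest in GFP-negative splenic cells after quantile normalization (1166 ± 52.5), but not on the deposited scale, where it read 901 and 892 there against 898 and 1022 in the GFP-positive splenic arrays. Across the 8 quantile-normalized arrays, Pearson r with the mean of the other 8 genes was 0.969 to 0.994 for 7 genes, -0.393 for Fanci and -0.816 for Palb2. These arrays share 1 split, with the GFP-negative splenic pair apart. The 5 other tested genes with the pattern most like the mean of the 9 (r of 0.9991 to 0.9996 over 8 arrays) were 2810408I11Rik, Cops5, Orc1, Mrpl14 and Clybl. Their splenic changes ran from 0.89 (Cops5) to at least 4.72 (Orc1). Orc1 and 2810408I11Rik lay at the floor of 32 on both GFP-negative splenic arrays, and Clybl lay near it (42.1 and 42.8).

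Around the 9 genes, 68 other recombination and Fanconi genes were measured. In the spleen 53 were higher in the GFP-positive fraction, 7 lower and 8 not called, with a median of 0.87; on the deposited scale the counts were 60 higher and 3 lower, after the median shift 61 and 1, and with that shift over tested probe sets 47 and 9. Over all genes, as given above, 45.7% were higher and 31.4% lower. Fignl1, an ATPase that dismantles recombinase filaments, rose from 48.2, below the filter signal, to 2788 (5.86 ± 0.09). Rad51ap1, which helps the recombinase pair strands, was at least 34.8-fold higher. Eme1, a subunit of a junction nuclease, rose from 38.2, also below the filter signal, to 1152 (4.91 ± 0.12), so its size is not exact. Lower genes were Rad52, Fancg, Faap20, Rmi1, Uimc1, Rnf8 and Polq. Of these, Polq, the polymerase of an alternative end joining route, was lower under all 4 scalings (-0.87 ± 0.18 in the reported one, 127 to 68.7).

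By role, a grouping made after the values were seen, all 10 genes of end resection and single-strand binding rose in the GFP-positive splenic fraction (median 1.70). Of 14 genes of the Fanconi core complex and its ubiquitin enzymes, 10 were higher and 2 lower (median 1.02). Of 24 recombinase paralogues and regulators, 21 were higher and 2 lower (median 0.83). Among 12 genes of junction processing, 8 were higher and 1 lower (median 0.87). The 8 genes of ubiquitin signalling at breaks split into 4 higher, 2 lower and 2 not called (median 0.22), shares near those of all genes (45.7% higher, 31.4% lower, median 0.18).

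Genes of DNA replication and of mitosis moved with these genes in the spleen: 30 of 31 replication genes and 26 of 26 mitosis genes were higher in the GFP-positive fraction, with medians of 1.96 and 3.48. The summed replication signal was 46895 to 47893 in GFP-negative splenic arrays and 121612 to 131356 in the other 6. The summed mitosis signal was 10611 to 11373 against 93778 to 100482. In BCR-ABL1 cells 0 of 31 replication genes and 0 of 26 mitosis genes were called, where 5.37% of all genes were. The myeloid list had 14 of 14 tested genes lower in the GFP-positive splenic fraction, where 31.4% of all genes were. The T and NK list had 12 of 14 lower with 1 higher. Genes such as Camp, Ngp, Csf1r and Cd3g lay at the floor in every other group. They passed the filter only through the GFP-negative splenic arrays, so these counts were set in part by the filter. The myeloid median of -6.98 rests in part on signals at the floor. The part of cycling, of other cells and of RNA quality in the splenic differences of the 9 genes was not tested.

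**Figure D4:**
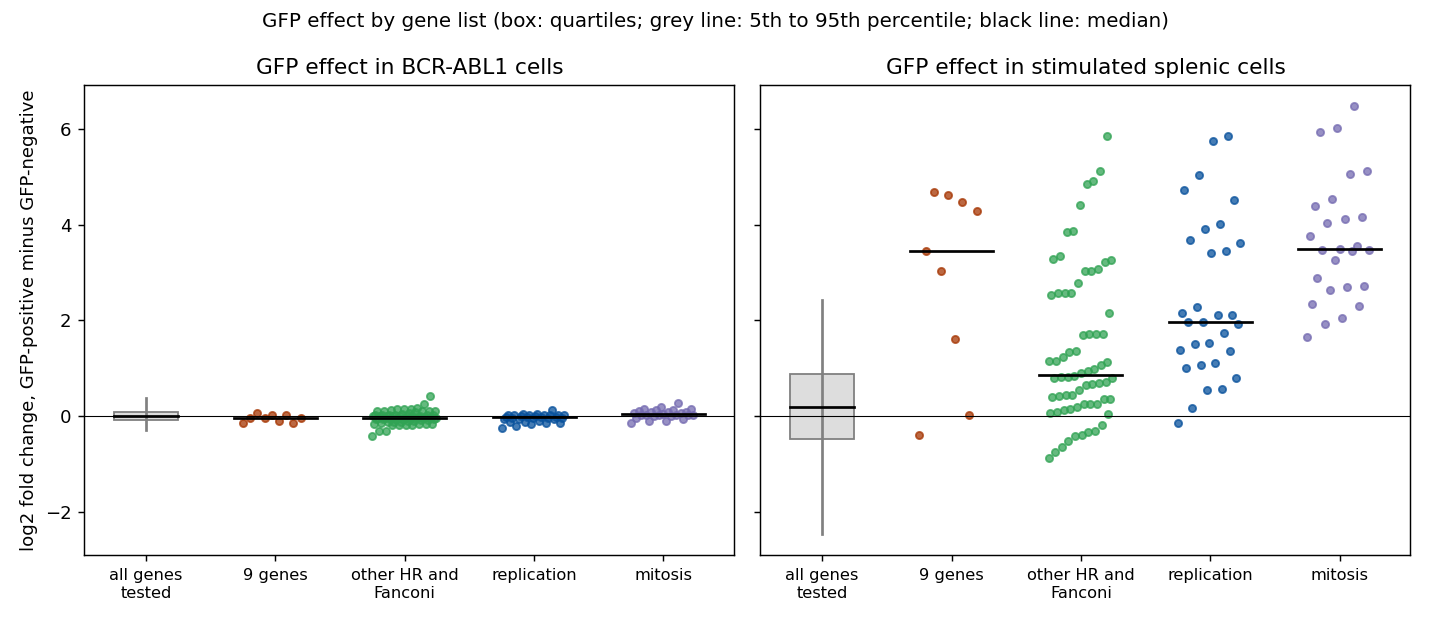
Log2 fold change, GFP-positive minus GFP-negative, in BCR-ABL1 (left) and splenic cells (right), with 1 point per gene and the list's median as a black line; the grey box holds the quartiles of all tested genes and its line the 5th to 95th percentile. On the right the medians are 3.44 for the 9 genes (the value of Bard1, not exact) and 0.87 for the other recombination and Fanconi genes. They are 1.96 for replication and 3.48 for mitosis, against 0.18 for all genes, a median that moves with the scaling. On the left every list's median lies between -0.04 and 0.04.

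In BCR-ABL1 cells the same 68 genes gave 1 call between the GFP fractions, where 5.37% of all genes were called. Faap20, a small subunit of the Fanconi core complex, fell from 935 ± 53.2 to 705 ± 39.6 (SD, n = 2; -0.41 ± 0.09, adjusted p = 0.049), and the list's median was -0.03. Between GFP-positive BCR-ABL1 and splenic cells, 6 of the 68 were higher and 19 lower, with a median of -0.06, where 24.8% of all genes were higher and 25.5% lower with a median of -0.05. The lower count is near that background. Dna2, a nuclease of end resection, was higher by 1.02 ± 0.27, Rnf168, a ubiquitin ligase at breaks, by 0.77 ± 0.09, and the Werner helicase gene Wrn by 0.47. Lower in BCR-ABL1 cells were Faap24 (-0.79 ± 0.09), Rad51b (-0.77 ± 0.16) and Recql5 (-0.67). Between the GFP-negative fractions 48 were higher in BCR-ABL1 cells and 6 lower, where 45.7% of all genes were higher and 32.8% lower. Fignl1 was higher by 5.77 over a splenic signal below the filter, and Rad51ap1 and Rad54b, at the floor in the splenic arrays, were at least 33.0-fold and 32.8-fold higher.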

How the data were processed

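The deposited table holds array intensities on a linear scale, made by the authors with GCOS 1.3 per the submitters' processing notes; for the probe summary, the scaling and the genome build, no description was found in the labels or file headers. Symbols came from the platform annotation. The 8 arrays were quantile normalized, values under 32 were set to 32, and log2 was taken. Probe sets under the 40th percentile of mean log2 value were left out, 1 probe set (the brightest) represented a gene, and 12223 genes were fitted with limma 3.58.1 in R 4.3.3 (1 mean per group, eBayes with trend, 4 residual degrees of freedom). Each of 5 contrasts had its own Benjamini-Hochberg adjustment over the genes fitted. The fit was tested on simulated data. With 2 arrays against 2, an exact permutation test cannot go below p = 0.333, so calls rest on the model, and the number of arrays limits the precision. Control probe sets (64) were left out. The replicates of a group shared 0.127% to 0.264% identical values, so none was a copy. The 9 genes and all lists were chosen with earlier results of these data known. Of the 68 other recombination and Fanconi genes, those named were up to 3 with the largest change in each direction of a contrast and those called against the list's main direction; a subset of these is printed. Alternatives were the deposited scale, median shifts, floors of 16 and 64, other filters, other eBayes settings, other probe set choices, the replicate number as a block, the 4 arrays of a comparison alone and leaving out each array.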

Additional observations from a re-analysis of the deposited data

Results flagged for a closer look

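For 7 genes the GFP effect differed between the sources by the interaction test in limma, over all 12223 genes. The effect in BCR-ABL1 cells minus the effect in splenic cells was -4.44 for Brca1 (adjusted p = 1.7e-06) and -1.56 for Brca2 (adjusted p = 1.9e-05). It was -4.66 for Rad54l (adjusted p = 9.1e-07) and -3.08 for Blm (adjusted p = 7.2e-06). Fancd2 gave -4.44 (adjusted p = 1.8e-07), Bard1 -3.48 (adjusted p = 1.7e-06) and Brip1 -4.67 (adjusted p = 1.6e-07). In each case the GFP-negative splenic arrays are the low ones, and for Rad54l, Fancd2, Bard1 and Brip1 they lie below the filter signal, at or next to the floor for Fancd2 and Brip1, so these sizes have no order. A difference in that direction was called in 41.0% of all genes. Rad54l, Fancd2, Bard1 and Brip1 passed the filter only through the other groups, so their adjusted p adds no support. For Fancd2 and Brip1 the floor also narrows the spread of the low pair.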

How the results depend on the processing

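The 7 splenic rises, the 7 differences between sources and the 7 rises of GFP-negative BCR-ABL1 over splenic cells kept their direction and their call in every alternative run. No gene of the 9 was called between the BCR-ABL1 fractions in any of them. In the run with every probe set on its own, each gene was still scored by its brightest probe set. That run could not register probe sets that differ, such as Rad54l 1453926_at (-3.56 in the spleen) and Fancd2 1442092_at (0.04). Over the single-gene values, 840 comparisons with an alternative kept direction and side of the threshold, 21 passed it newly, 13 lost it and 17 changed sign. On the deposited scale Palb2 was 0.10 in the spleen and -0.16 in the difference between sources, and Fanci was 0.12 between the GFP-negative fractions. After the median shift Palb2 was 0.26 and -0.31, Fanci 0.23, and Bard1 0.0059 in BCR-ABL1 cells. A median shift over tested probe sets, chosen after seeing the data, gave Fanci -0.17 in the spleen and 0.0152 in the difference. With probe sets averaged per gene, Rad54l was -0.0187 in BCR-ABL1 cells. The cause of these changes was not tested. With every probe set on its own, more features are tested, and 21129 were called in the spleen, 18864 in the difference, 11900 between GFP-positive and 21322 between GFP-negative cells. Between GFP-positive cells Brca1, Brca2, Rad54l and Blm were also called with the 4 arrays alone. The share of all genes called in that fit is not printed here.

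Leaving out 1 array, calls over all genes in BCR-ABL1 cells were 210 to 242 without a BCR-ABL1 array and 497 to 839 without a splenic one, against 656. Over the same alternatives the BCR-ABL1 changes ran from -0.0241 to 0.0768 for Rad54l, from -0.121 to 0.0248 for Blm, from -0.104 to 0.035 for Bard1 and from -0.125 to 0.037 for Brip1. The splenic change of Fanci ran from -0.0445 to 0.0886, and the count of the 9 genes called between GFP-positive cells from 3 to 8.

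With the replicate number as a block, the counts of the 9 genes called were 0, 8, 7, 4 and 9 in the 5 contrasts, as without it, and 715 genes of all were called in BCR-ABL1 cells and 9766 in the spleen. The deviations of same-numbered arrays correlated at 0.11 in BCR-ABL1 and 0.27 in splenic cells over 2 pairs each, which does not settle whether the numbers pair the samples.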

Other observations

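Between GFP-positive BCR-ABL1 and splenic cells, the groups of recombination genes by role gave these counts, where 24.8% of all genes were called higher and 25.5% lower. Of 10 end resection and single-strand binding genes, 2 were higher in BCR-ABL1 cells and 4 lower (Mre11a, Rad50, Nabp2 and Ints3). Of 12 junction processing genes, 1 was higher and 4 lower (Mus81, Top3a, Rmi1 and Rmi2), with a median of -0.32. Of 24 recombinase paralogues and regulators, 1 was higher and 4 lower (Rad51b, Rtel1, Recql5 and Helq), with a median of -0.01. Of 14 Fanconi core and ubiquitin enzyme genes, 1 was higher and 3 lower (Fancc, Faap24 and Faap20). Of 8 genes of ubiquitin signalling at breaks, 1 was higher and 4 lower (Uimc1, Brcc3, Babam1 and Rad18), with a median of -0.19. Members of these groups were named after their values were seen.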
